A study of Mus musculus with 12 samples.

Results

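The Toll-like receptor genes of sorted brain macrophages were followed here across all groups of the experiment. The members are the 10 genes Tlr1 to Tlr9 and Tlr13, taken by name from the 56735 gene names of the count table. No rule on their values was used, but earlier results of these data were known. By the place where their proteins meet a ligand they fall into 5 receptors of the cell surface (Tlr1, Tlr2, Tlr4, Tlr5 and Tlr6) and 5 of the endosome (Tlr3, Tlr7, Tlr8, Tlr9 and Tlr13). All 10 members passed the filter on low counts and were among the 13724 genes tested.

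Subdural CNS-associated macrophages (sdCAMs) are the macrophages that line the vessels and inner coverings of the brain and carry the mannose receptor CD206, the product of Mrc1. They were sorted as CD206+ cells from brains without choroid plexuses of adult Mrc1CreERT2/CreERT2:R26tdT/tdT mice, in which tamoxifen, given before the treatment to all mice, switches on the red reporter tdT in cells that use the Mrc1 promoter at that time. A CD206+ cell without tdT is one that carries no such mark. Mice received 7 days of vehicle or of BLZ945, an inhibitor of the macrophage growth factor receptor CSF-1R, at 200 mg/kg by oral gavage, and cells were sorted 8 weeks later. The 3 groups of 4 libraries are tdT+ cells of vehicle mice (vehicle tdT+), tdT+ cells of BLZ945 mice (BLZ945 tdT+) and tdT- cells of BLZ945 mice (tdT-). Each group has libraries labelled F1, F2, M1 and M2, and a BLZ945 mouse gave both the tdT+ and the tdT- library that bear its label, while vehicle mice are other animals. No tdT- cells of vehicle mice were analysed here, so treatment and the lack of label cannot be told apart in tdT- cells set against vehicle tdT+ cells. Both alleles of Mrc1 carry CreERT2, in all groups.

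Toll-like receptors are membrane proteins that recognise conserved parts of microbes. Those of the surface bind lipids and proteins of bacteria, those of the endosome bind nucleic acids, and nearly all of them signal through the adaptor MyD88 to NF-κB, with TLR3 using TRIF and TLR4 using both. Macrophages and microglia of the brain are the main cells there known to carry them.

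Libraries held 19969308 to 23395058 counted reads. The summed level of 8 sdCAM markers, Mrc1 among them, was 58980 to 62310 TPM (transcript levels, counts divided by gene length and scaled to the same total in every library) in vehicle tdT+, 64380 to 72530 in BLZ945 tdT+ and 36360 to 49970 in tdT- libraries, and all 8 were lower in tdT- than in BLZ945 tdT+ cells. Apoe alone averaged 47210, 57280 and 38150 TPM in these groups, most of each sum. The folds by which the 8 were lower ran from 1.37 for Apoe to 7.02 for Cd163, with 2.93 for Mrc1. Conversely, all 6 microglia markers were higher in tdT- cells, and none of the 6 was at 0 in any group. Their summed levels were 2839 to 4725, 4930 to 6262 and 11400 to 23860 TPM in the same order. Of the tdT- libraries, F2 alone carried neutrophil markers (63160 TPM summed over 5 genes, against at most 8.62 in any other library) and had the highest monocyte marker sum, 2982 TPM. The tdT transgene had 0 counts in all 12 libraries and cannot check the sort. Each further list held 5 markers. Those of B cells summed to 84.8 to 119.8 TPM in vehicle tdT+, 20.7 to 39.7 in BLZ945 tdT+ and 52.9 to 84.3 in tdT- libraries. Red blood cell markers reached 1555, 2706 and 5663 TPM in the same order, the last in F2. T or NK cell markers reached 89.5 TPM in tdT- library F2 and at most 8.53 elsewhere, and dendritic cell markers 75.5 TPM in tdT- library F1. Glia and neuron markers summed to at most 171.9 and endothelial ones to at most 3.54 TPM. Of all markers, Ncr1 of T or NK cells and Pax5 of B cells were at 0 in all 12 libraries. The part of these other cells in the values below was not tested beyond the values without single libraries, and in such bulk samples fewer cells of a type and less RNA per cell cannot be told apart.

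Compared per length, Tlr2 was the most abundant member. Its product pairs with TLR1 or TLR6 to bind bacterial lipopeptides. In vehicle tdT+ cells it reached 373 ± 46.5 TPM (mean ± SD, n = 4 here and below), and its lowest library lay above the highest of the next gene, Tlr7, a receptor of single-stranded RNA with 200 ± 59.9 TPM. Tlr13, which in mice senses bacterial ribosomal RNA, followed with 161 ± 36.5 TPM, and Tlr4, the receptor of lipopolysaccharide, with 137 ± 28.7 TPM. The ranges of Tlr7 and Tlr13, and of Tlr13 and Tlr4, overlapped. Tlr8, a second receptor of single-stranded RNA, had 78.1 ± 21.6 TPM and Tlr1 58.8 ± 13.9 TPM, again with overlapping ranges. Lower levels belonged to Tlr6 (28.0 ± 10.97 TPM), to the flagellin receptor Tlr5 (24.6 ± 9.37 TPM) and to Tlr3, which binds double-stranded RNA (11.3 ± 5.89 TPM). Tlr9, the receptor of unmethylated CpG DNA, was lowest with 1.12 ± 1.14 TPM and 3 to 68 reads per library.

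This order was kept in broad terms in the other groups. Tlr2 led with 315 ± 31.0 TPM in BLZ945 tdT+ and 325 ± 96.3 TPM in tdT- cells, and Tlr9 was last in both. In BLZ945 tdT+ cells Tlr13 (255 ± 21.2 TPM) and Tlr7 (249 ± 38.0 TPM) were next, with Tlr13 overlapping Tlr2, and Tlr4 (174 ± 19.0 TPM), Tlr8 (118 ± 13.0 TPM) and Tlr1 (64.4 ± 3.67 TPM) followed with no overlap between neighbours. In tdT- cells the ranges of Tlr2, Tlr13 (182 ± 60.2 TPM) and Tlr7 (156 ± 32.2 TPM) overlapped from neighbour to neighbour, while Tlr4 was at 82.3 ± 11.6 TPM, below every Tlr7 library and above every Tlr8 library. Tlr8 (53.6 ± 13.5 TPM) and Tlr1 (48.3 ± 9.32 TPM) overlapped there, as did Tlr6, Tlr3 and Tlr5.

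**Figure D1:**
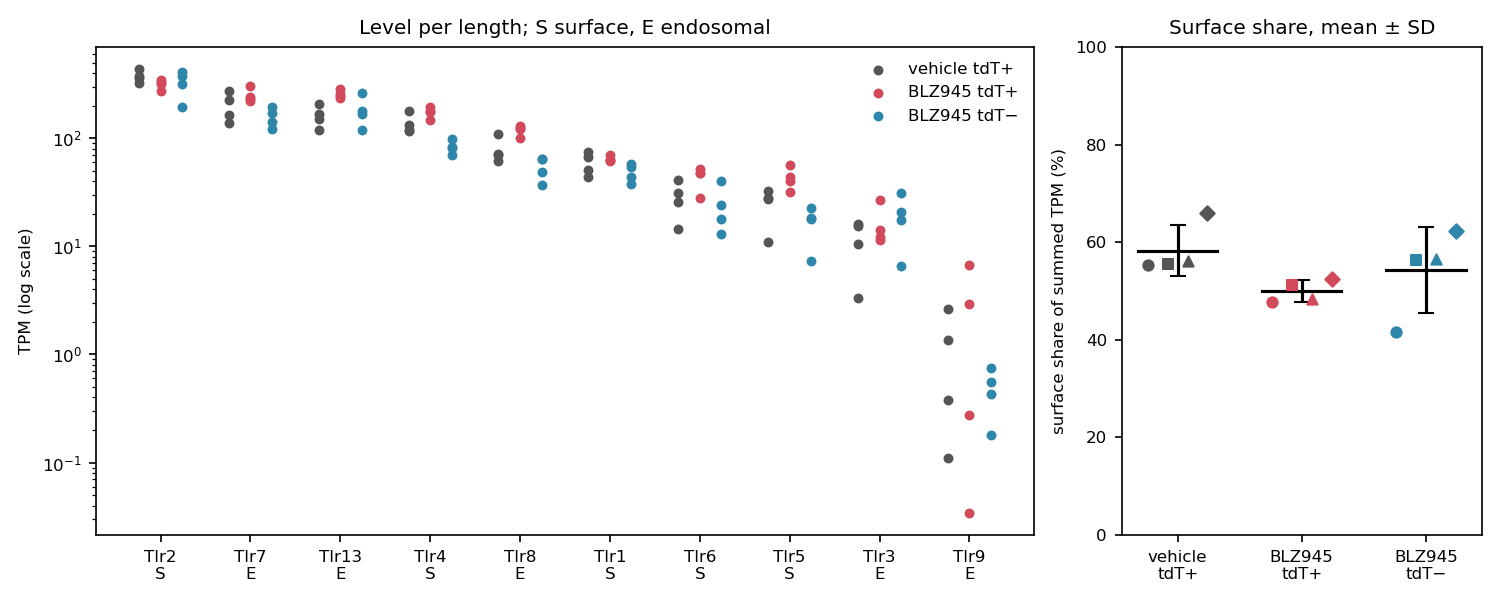
The left panel plots the level of each receptor gene in TPM (log scale) for the 12 libraries, with genes ordered by their mean in vehicle tdT+ cells and marked S (surface) or E (endosomal). The right panel plots the surface receptors' share of the summed TPM of all 10 genes in percent, 1 point per library (circle F1, square F2, triangle M1, diamond M2) with the mean ± SD of each group, and shows shares of 41.7% to 62.4% in the tdT- libraries against 47.8% to 52.5% in BLZ945 tdT+ ones.

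Summed over members, neither class made up more than 66.0% of the total in any library. The 5 surface genes summed to 621 ± 99.6 TPM in vehicle tdT+, 640 ± 27.8 TPM in BLZ945 tdT+ and 496 ± 121 TPM in tdT- cells. The 5 endosomal genes summed to 451 ± 118 TPM, 641 ± 42.9 TPM and 411 ± 64.8 TPM. The surface share was thus 58.2% ± 5.22, 50.0% ± 2.31 and 54.3% ± 8.85. Every vehicle library (55.3% to 66.0%) had a larger surface share than any BLZ945 tdT+ library, whereas the tdT- range spanned nearly both. The share is a description, with no test, and the single low tdT- value of 41.7% belonged to library F1, which had the lowest Tlr2 and the highest Tlr13 of its group. Tlr2 on its own made up 60.3% ± 2.99, 49.2% ± 3.40 and 64.8% ± 6.32 of the surface sum.

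The comparison within BLZ945 mice asked how unlabelled sdCAMs differed from labelled ones that shared the same animal. Tlr4, Tlr5 and Tlr8 were lower in tdT- cells, and no member was higher. So DESeq2 called 3 of 10 members (adjusted p up to 0.05), beside 6.38% of all genes tested in either direction and 3.51% lower. With edgeR 2 of 10 were called, beside 2.75% of all genes. None met the DEG rule, which also asks that the shrunken log2 fold change reach 1 in either direction (2.25% of all genes did), although Tlr5 lay just short of that limit. The median unshrunken log2 fold change was -0.63 over the 10 members, -0.72 over the surface and -0.54 over the endosomal receptors, and 0.00 over all genes tested, 0.00355 before rounding. The log2 fold changes given below with an SE are shrunken with apeglm, and folds are unshrunken.

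Tlr4 separated the groups most clearly. In normalised read counts (counts divided by the library's size factor) the tdT- libraries had 3601 (F1), 3192 (F2), 3883 (M1) and 4516 (M2). The BLZ945 tdT+ libraries of the same mice had 7326, 6358, 7249 and 8217. Every tdT- value was below every tdT+ value, and within mice the log2 ratio ran only from -1.02 in F1 to -0.86 in M2. The level was 1.92-fold lower in tdT- cells (log2 fold change -0.89 ± 0.16 SE, adjusted p = 1.04e-07, DESeq2), and edgeR's quasi-likelihood test made the same call (adjusted p = 0.00289). Without tdT- library F2, the one with neutrophil markers, the log2 fold change was -0.82 (adjusted p = 2.54e-06). In tdT- libraries F1, F2, M1 and M2 the microglia marker sum was 12030, 11400, 23860 and 17020 TPM, and Tlr4 was at 80.3, 69.1, 82.5 and 97.3 TPM. The part of microglia in the Tlr4 difference was not tested. A gene of unknown function, Gm57137, lies within the Tlr4 span on the same strand but shares no exon base with it.

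The flagellin receptor Tlr5 had 767, 318, 786 and 985 normalised counts in tdT- libraries F1, F2, M1 and M2. It had 2213, 1288, 1642 and 1582 in the BLZ945 tdT+ libraries of these mice. The groups did not overlap, so all 4 mice necessarily showed the lower level, by log2 ratios from -2.01 in F2 to -0.68 in M2. The fitted difference was 2.35-fold (log2 fold change -0.99 ± 0.41 SE, adjusted p = 0.0196, DESeq2). This call was not made by edgeR (adjusted p = 0.0976), and in DESeq2 it was lost without the BLZ945 tdT+ library F1 (log2 fold change -0.72, adjusted p = 0.115), M1 (adjusted p = 0.0601) or M2 (adjusted p = 0.051). With the mouse as a block, in a DESeq2 fit that left out the vehicle libraries, Tlr5 became a DEG (log2 fold change -1.17, adjusted p = 0.000773). It was the only member to do so. Without a block, a DESeq2 fit of only the compared groups made it a DEG too (log2 fold change -1.03, adjusted p = 0.0128).

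Among endosomal receptors only Tlr8 was called. Its tdT- libraries had 1861, 1091, 1965 and 1467 normalised counts in the order F1, F2, M1 and M2. The BLZ945 tdT+ libraries had 3502, 2764, 3201 and 3311. Again no value overlapped, so each mouse necessarily showed a lower level in its tdT- cells, by log2 ratios from -1.34 to -0.70. The difference was 2.0-fold (log2 fold change -0.91 ± 0.23 SE, adjusted p = 0.000324, DESeq2; adjusted p = 0.0174, edgeR). Leaving out tdT- library F2, where the lowest value stood, gave a log2 fold change of -0.77 (adjusted p = 0.00131). Groups that did not overlap, with tdT- cells lower, were found for these 3 members and for 4.79% of all genes tested.

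The other members on the X chromosome did not pass the test. Tlr7 lies next to Tlr8 and had 4608, 5754, 6705 and 4123 normalised counts in tdT- libraries against 9372, 7603, 6574 and 7173 in BLZ945 tdT+ ones. It was lower in 3 of 4 mice and slightly higher in M1, and the groups overlapped (log2 fold change -0.43 ± 0.21 SE, adjusted p = 0.115, DESeq2). Without tdT- library M1, the one with the highest microglia marker sum, Tlr7 was called lower (log2 fold change -0.58, adjusted p = 0.0307), and so was Tlr6 (log2 fold change -0.84, adjusted p = 0.042). Tlr13 had 9154 in tdT- library F1, above every BLZ945 tdT+ value (7624 to 8891), and 4250 to 6476 in the other tdT- libraries, all below them (log2 fold change -0.27 ± 0.19 SE, adjusted p = 0.431). Without library F1 it was called lower too (log2 fold change -0.48, adjusted p = 0.0375). Depending on which library was left out, 2 to 5 of the 10 members were called. The share of all genes called in each of these fits was not computed.

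The remaining surface receptors gave no call. Tlr2 had 4702, 7897, 9670 and 10370 normalised counts in tdT- libraries F1, F2, M1 and M2 and 7183, 8008, 5958 and 7589 in BLZ945 tdT+ libraries. It was lower in the tdT- cells of both F mice and higher in those of both M mice (log2 fold change 0.13 ± 0.17 SE, adjusted p = 0.808, unshrunken 95% interval -0.21 to 0.57). Its partner Tlr1 had 1345 ± 283 against 1625 ± 124 normalised counts (adjusted p = 0.647) and its other partner Tlr6 744 ± 385 against 1226 ± 304 (adjusted p = 0.367). Tlr1 and Tlr6 are neighbouring copies on chromosome 5, and 12.0% of the distinct 60-base stretches of Tlr1 transcripts occur in Tlr6 transcripts too. Reads from these stretches map to both genes and were not counted, so their values rest on the rest of each gene. None of the other members shared a stretch of that length with another. Shorter shared stretches were not searched, although the study's reads were shorter than 60 bases.

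The nucleic acid receptors Tlr3 and Tlr9 varied widely between libraries of a group. Tlr3 ranged from 291 to 1356 normalised counts in tdT- and from 431 to 1053 in BLZ945 tdT+ libraries (adjusted p = 0.876). An uncharacterised gene on the other strand, Gm45542, shares 381 exon bases with Tlr3, but held 29 reads over all libraries against 7878 for Tlr3. Tlr9 had 165 reads in BLZ945 tdT+ library M1 and 84 in F1 but 1 in F2 and 7 in M2, against 5 to 20 in tdT- libraries (adjusted p = 0.453). The unshrunken 95% interval of the difference ran from -4.83 to 0.39 on the log2 scale.

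**Figure D2:**
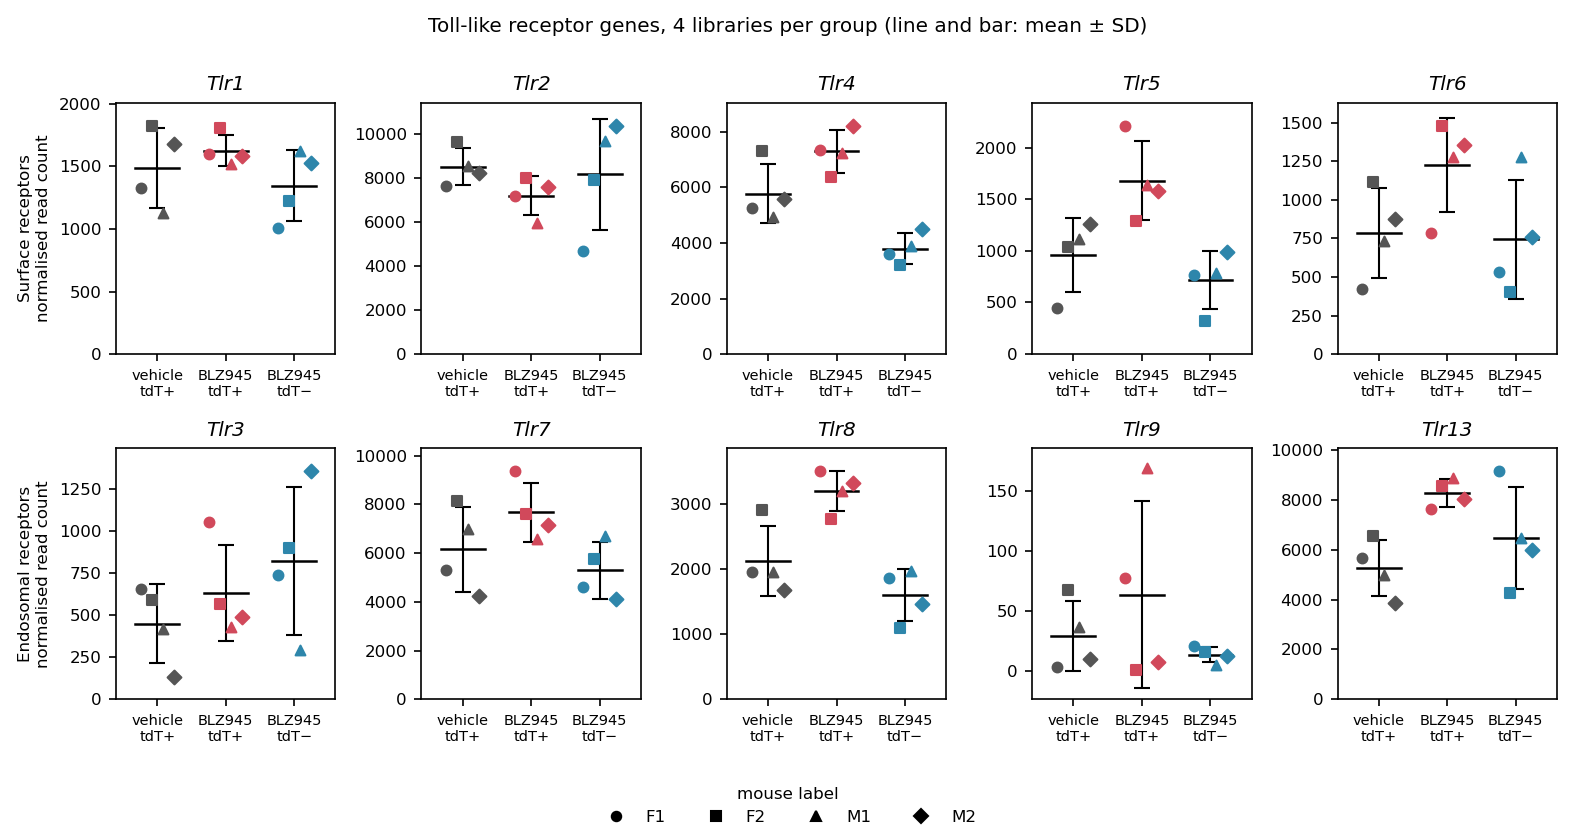
Normalised read counts of the 10 genes are plotted for each library, with surface receptors in the top row, endosomal receptors below, marker shapes for the mouse labels, and lines and bars for the mean ± SD of 4 libraries. For Tlr4, Tlr5 and Tlr8 every tdT- point lies below every BLZ945 tdT+ point, as with 3192 to 4516 against 6358 to 8217 for Tlr4.

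**Figure D3:**
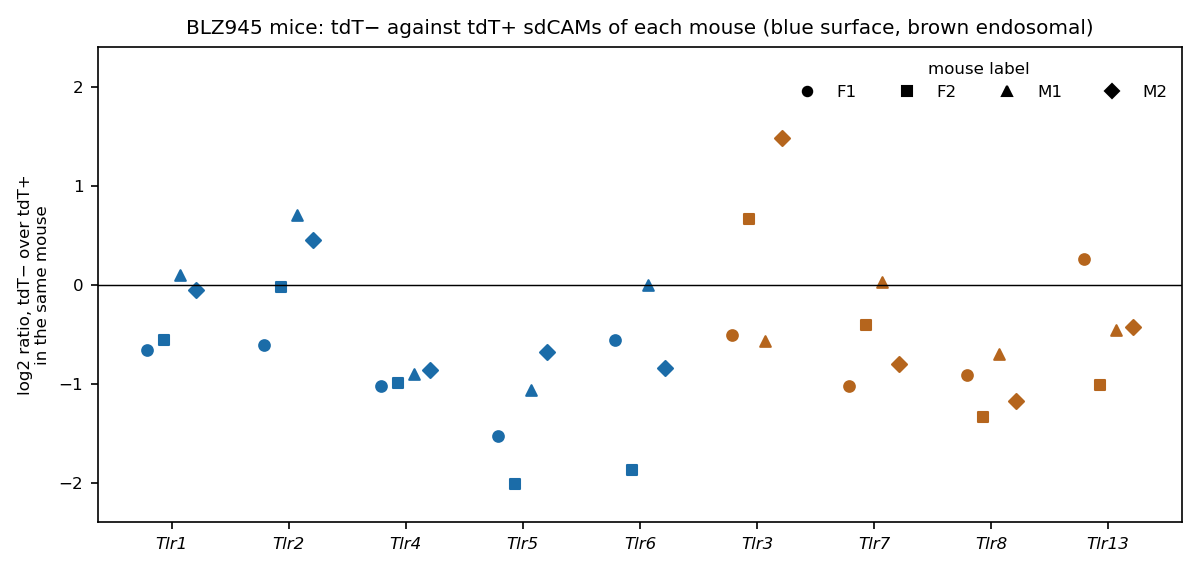
For each of the 4 BLZ945 mice, the log2 ratio of the normalised read count (plus a pseudocount of 1) in tdT- over tdT+ sdCAMs is plotted for 9 receptor genes, without Tlr9, whose ratios ran from -4.76 to 3.15 on 1 to 165 reads. All 4 points are below 0 for Tlr4, Tlr5 and Tlr8 and on both sides of 0 for the other 6 genes.

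The stretch before the start site is shown for Tlr5 and Tlr8, which were lower in tdT- than in BLZ945 tdT+ cells. It is also shown for Tlr2 and Tlr13, abundant members that did not pass the test, so that the letters can be set side by side. No window was at hand for Tlr4 or Tlr7. The windows are 250 bases upstream of a RefSeq start in build GRCm38.p6, on the strand of the gene, at chr1:182954538-182954787 (plus strand) for Tlr5, chrX:167264330-167264579 (minus strand) for Tlr8, chr3:83841609-83841858 (minus strand) for Tlr2 and chrX:106143025-106143274 (plus strand) for Tlr13. Capitals mark letters of the searched motifs on either strand.
Tlr5: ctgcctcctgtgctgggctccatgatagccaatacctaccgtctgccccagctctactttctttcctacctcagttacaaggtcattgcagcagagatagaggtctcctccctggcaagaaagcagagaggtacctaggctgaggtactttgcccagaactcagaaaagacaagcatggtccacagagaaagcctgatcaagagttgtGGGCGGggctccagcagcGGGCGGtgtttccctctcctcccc
Tlr8: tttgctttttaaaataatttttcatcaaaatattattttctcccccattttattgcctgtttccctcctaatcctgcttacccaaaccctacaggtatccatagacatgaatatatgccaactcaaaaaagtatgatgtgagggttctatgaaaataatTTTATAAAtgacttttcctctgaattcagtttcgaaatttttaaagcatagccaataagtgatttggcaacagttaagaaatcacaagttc
Tlr2: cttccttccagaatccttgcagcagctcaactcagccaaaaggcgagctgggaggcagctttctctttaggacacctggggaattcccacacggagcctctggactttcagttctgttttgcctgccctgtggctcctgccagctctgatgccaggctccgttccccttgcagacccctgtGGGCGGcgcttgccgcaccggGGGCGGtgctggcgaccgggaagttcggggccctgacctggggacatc
Tlr13: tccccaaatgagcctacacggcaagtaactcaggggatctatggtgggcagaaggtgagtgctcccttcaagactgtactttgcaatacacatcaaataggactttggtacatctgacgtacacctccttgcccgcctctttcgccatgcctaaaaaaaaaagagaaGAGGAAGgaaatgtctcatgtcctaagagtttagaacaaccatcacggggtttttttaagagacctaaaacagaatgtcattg
Both strands were searched for 5 motifs. The AP-1 motif was spelled TGANTCA. That of PU.1, a factor of macrophage identity, was GAGGAAG. The GC box was taken as GGGCGG and the E-box, which reads alike on both strands, as CACGTG. The TATA motif was spelled TATAAA. The capitals of Tlr8 are a pair of overlapping TATA matches on opposite strands, at -91 to -84 from the start, and those of Tlr13 a PU.1 match at -83 to -77. Tlr5 and Tlr2, of which only Tlr5 was called, each held GC boxes in a pair near the start, at -42 to -37 and -24 to -19 in Tlr5 and at -69 to -64 and -48 to -43 in Tlr2. Over the 10 windows listed for 8 of the members, PU.1 letters occurred in 3 (Tlr1, Tlr9 and Tlr13), TATA letters in 2 (Tlr6 and Tlr8), the GC box in 2 (Tlr2 and Tlr5), AP-1 in 1 (Tlr9) and the E-box in 1 (Tlr1). Of all 32851 windows of this length 10.6%, 12.4%, 32.7%, 6.75% and 6.02% held them. Matches of letters are a description and name no bound site. By the annotation of the count table (build GRCm39) Tlr5 spans chr1:182782353-182804010, Tlr4 chr4:66745821-66848521, Tlr8 chrX:166025692-166047325 and Tlr13 chrX:105186810-105204099, and counts cover all their exons.

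Against vehicle tdT+ cells, tdT- cells differed in Tlr4 only. This comparison asked how unlabelled cells after BLZ945 differed from labelled cells of mice that had received vehicle. It gave 1 of 10 members, beside 6.76% of all genes tested in either direction and 3.49% lower, and no DEG, beside 2.55%. Vehicle tdT+ libraries had 5248, 7314, 4922 and 5578 normalised counts of Tlr4 in the order F1, F2, M1 and M2, all above the tdT- libraries (3192 to 4516), a separation found for 4.87% of all genes tested. The fold was 1.52 (log2 fold change -0.55 ± 0.16 SE, adjusted p = 0.00283, DESeq2; adjusted p = 0.0334, edgeR), and it kept its side of the threshold in all 15 alternatives, with adjusted p from 0.000468 to 0.0334. The alternative with unshrunken folds reuses the adjusted p of the main fit, so it could not change side. Tlr8 had 1596 ± 399 against 2121 ± 538 normalised counts (adjusted p = 0.361) and Tlr5 714 ± 282 against 964 ± 358 (adjusted p = 0.694), with overlapping groups for both. Tlr2 was at 8160 ± 2529 against 8515 ± 842 (adjusted p = 0.964, unshrunken 95% interval -0.45 to 0.33). The median unshrunken log2 fold change was -0.18 over the members and 0.03 over all genes tested.

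The effect of the earlier depletion on labelled cells was read from BLZ945 tdT+ against vehicle tdT+ cells, which share the BLZ945 tdT+ libraries with the comparison within mice. No member was called by DESeq2 or by edgeR, beside 0.955% of all genes in DESeq2 and 0.0656% in edgeR, and no member was a DEG, beside 0.168%. In all, 4 of 10 had an unadjusted p under 0.05 with either tool, beside 8.08% of all genes in DESeq2. The share of all genes under that limit in edgeR was not computed. These were Tlr4, Tlr5, Tlr8 and Tlr13, each at a higher mean in BLZ945 tdT+ cells. The median unshrunken log2 fold change was 0.54 over the members and 0.03 over all genes tested.

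Tlr13 had the smallest p of them. Its BLZ945 tdT+ libraries had 7624, 8549, 8891 and 8039 normalised counts in the order F1, F2, M1 and M2, and its vehicle libraries had 5683, 6552, 4971 and 3865. The groups did not overlap, as was also so for Tlr5 (1288 to 2213 against 445 to 1259), and for 3.58% of all genes tested with this direction. The adjusted p was 0.106 for Tlr13 (log2 fold change 0.50 ± 0.24 SE), 0.269 for Tlr8 (0.38 ± 0.28 SE), 0.489 for Tlr4 (0.21 ± 0.16 SE) and 0.512 for Tlr5 (0.11 ± 0.19 SE). Tlr13 passed the test when the fit held only the 2 groups compared (log2 fold change 0.58, adjusted p = 0.00269), and both Tlr13 (adjusted p = 0.0356) and Tlr8 (adjusted p = 0.0286) passed without vehicle library F2, which had the highest count of each in its group. Set side by side, the unshrunken log2 fold changes of Tlr8 were 0.59 for BLZ945 tdT+ against vehicle tdT+, -1.0 for tdT- against BLZ945 tdT+ and -0.41 for tdT- against vehicle tdT+. Those of Tlr4 were 0.34, -0.94 and -0.60, and those of Tlr5 0.80, -1.24 and -0.43.

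**Figure D4:**
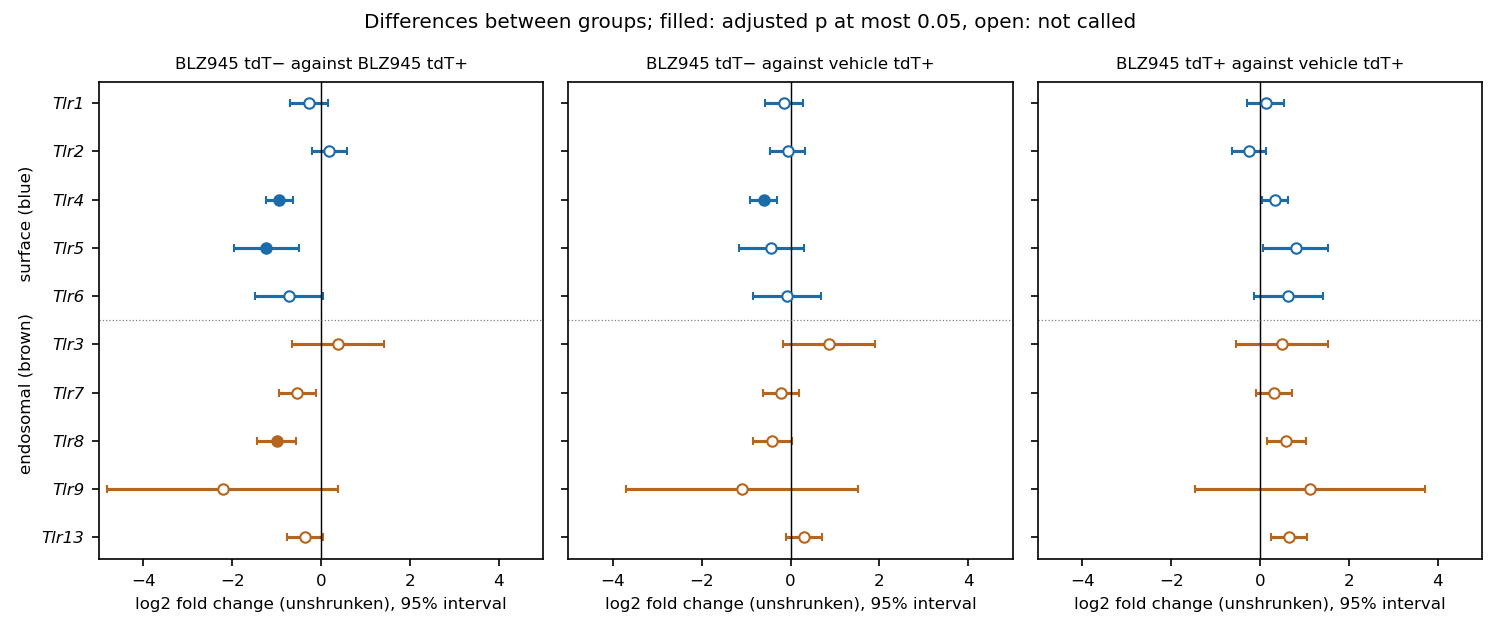
Unshrunken log2 fold changes of the 10 genes with 95% intervals are plotted for the 3 comparisons, with surface receptors in blue above endosomal ones in brown and filled points for genes called at an adjusted p of at most 0.05. Filled points are Tlr4, Tlr5 and Tlr8 for tdT- against BLZ945 tdT+ cells, Tlr4 for tdT- against vehicle tdT+ cells, and none for BLZ945 tdT+ against vehicle tdT+ cells.

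The letter of the mouse label was also examined, since Tlr7, Tlr8 and Tlr13 lie on the X chromosome. Within vehicle tdT+ cells both F libraries exceeded both M libraries in Tlr8 (1955 and 2904 against 1954 and 1672) and in Tlr13 (5683 and 6552 against 4971 and 3865). For Tlr8 the nearest values were 1955 and 1954. In BLZ945 tdT+ cells this held for Tlr7 (9372 and 7603 against 6574 and 7173), and in tdT- cells for none of these genes. Off the X chromosome the same order was found for Tlr3 in both tdT+ groups and for Tlr1 in BLZ945 tdT+ cells. Tlr9 had it in tdT- cells, on few reads. In tdT- cells both M libraries exceeded both F libraries in Tlr1, Tlr2, Tlr4, Tlr5 and Tlr6. Tlr5 had that order in vehicle tdT+ cells too. The share of all genes with either order was not computed. The tdT- M libraries also had the higher microglia marker sums (23860 and 17020 against 12030 and 11400 TPM in F). Library F2 of that group held the neutrophil markers (63160 TPM). The part of these cells in the order was not tested. No difference in effect between letters was called for any member or any of the 13724 genes by edgeR in any comparison. At an unadjusted p under 0.05 the test found 984 genes within BLZ945 mice, of which Tlr2 was the only member (adjusted p = 0.652, edgeR). Its log2 effect was 0.83 larger in M mice.

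Receptors that mice hold beyond these 10 are Tlr11 and Tlr12, which bind profilin of parasites. They were not placed in either class, so the class sums and medians above leave them out. Tlr12 was higher in tdT- cells, with 606, 646, 1125 and 500 normalised counts in F1, F2, M1 and M2 against 199, 165, 61.5 and 399 in BLZ945 tdT+ cells (log2 fold change 1.35 ± 0.70 SE, adjusted p = 0.033, DESeq2). It was not called by edgeR (adjusted p = 0.15). Against vehicle tdT+ cells (66.7 to 349) it was higher as well (adjusted p = 0.0315). Tlr11 had 107 to 190 normalised counts in tdT- libraries, 0 to 108 in BLZ945 tdT+ and 0 to 66.7 in vehicle libraries, and DESeq2 gave it no adjusted p, whereas with the mouse as a block it was called higher within BLZ945 mice (adjusted p = 0.000313), with a shrunken log2 fold change of 0.13. It was not called by edgeR (adjusted p = 0.747, no block). Both genes had their highest means in the group with the highest microglia marker sums, and the part of microglia in this was not tested.

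Most genes that carry the signal of these receptors did not pass the test. Of 52 tested genes in 7 lists of the pathway (54 listed), 4 were higher and 2 lower in tdT- than in BLZ945 tdT+ cells, 6 higher and 1 lower against vehicle tdT+ cells, and 1 higher between the tdT+ groups, beside 6.38%, 6.76% and 0.955% of all genes tested called in either direction. With edgeR these counts were 1 (Tollip), 1 (Cd36) and 0, so the other calls in these lists rest on DESeq2. The edgeR share of all genes called was 2.75% within BLZ945 mice and 0.0656% between the tdT+ groups. For tdT- against vehicle tdT+ cells it was not computed. The list medians of unshrunken log2 fold change were 0.15, 0.23 and 0.02 over the 52 genes, beside 0.00, 0.03 and 0.03 over all genes tested (the first 0.00355 before rounding).

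Co-receptors changed in both directions. Cd36, a scavenger receptor that assists TLR2 with TLR6, had 10890, 4584, 5703 and 4134 normalised counts in tdT- libraries and 13070, 13280, 10530 and 9307 in BLZ945 tdT+ ones, lower in all 4 mice although the groups overlapped (log2 fold change -0.74 ± 0.26 SE, adjusted p = 0.0119, DESeq2). It stood lower still against vehicle tdT+ cells, which had 13050 to 20680 (log2 fold change -1.37 ± 0.26 SE, adjusted p = 5.13e-07, DESeq2; adjusted p = 0.0083, edgeR). Ly86, which encodes the MD-1 partner of the receptor-like protein RP105, was higher in tdT- than in BLZ945 tdT+ cells in all 4 mice (40960 against 31860, log2 fold change 0.34 ± 0.11 SE, adjusted p = 0.0173). Vehicle tdT+ cells had 38500, from which tdT- cells were not called different (adjusted p = 0.837, DESeq2). The partners of TLR4 in binding lipopolysaccharide were not called lower. Cd14, which hands lipopolysaccharide to TLR4, had 18040 normalised counts on average in tdT- cells, 13930 in BLZ945 tdT+ (adjusted p = 0.101) and 13330 in vehicle tdT+ cells, against which it was higher (log2 fold change 0.39 ± 0.14 SE, adjusted p = 0.0351). Ly96, which encodes the MD-2 subunit, had 2250, 2503 and 2646 in that order and was not called in any comparison (adjusted p from 0.359 to 1.0). Lbp, the plasma carrier of lipopolysaccharide, was called higher within BLZ945 mice only with the mouse as a block (adjusted p = 0.00275, against 0.28 without it), on 0 to 483 normalised counts.

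Of the genes for folding and trafficking, Hsp90b1, the chaperone that most Toll-like receptors need to leave the endoplasmic reticulum, was higher than in vehicle tdT+ cells (14960 to 17130 normalised counts) both in BLZ945 tdT+ (18080 to 27010, log2 fold change 0.44 ± 0.16 SE, adjusted p = 0.0414) and in tdT- cells (17910 to 25220, log2 fold change 0.40 ± 0.15 SE, adjusted p = 0.0365). None of the 7 was called within BLZ945 mice. The list's most abundant gene, Unc93b1, which carries endosomal receptors to their compartment, was at 1385, 1569 and 1467 TPM in vehicle tdT+, BLZ945 tdT+ and tdT- cells. No adaptor of the 5 tested was called in any comparison, and Pik3ap1, an adaptor towards PI3-kinase signalling and the most abundant of them, was at 206, 187 and 165 TPM in that order. Peli1, a ubiquitin ligase of the pathway, was the only 1 of 16 kinases and ligases called, higher in tdT- than in vehicle tdT+ cells (3906 against 2833, log2 fold change 0.40 ± 0.16 SE, adjusted p = 0.0478).

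Transcription factors and inhibitors held the other calls. Irf5, a factor that acts downstream of MyD88, was higher in tdT- cells, with 5616 to 6466 normalised counts against 3852 to 5109 in BLZ945 tdT+ libraries (log2 fold change 0.47 ± 0.13 SE, adjusted p = 0.00197) and 3790 to 5132 in vehicle libraries (adjusted p = 0.0054). Irf8, a factor of macrophage and microglia identity, was higher in the same comparisons (adjusted p = 0.00624 and 0.022, DESeq2). With the mouse as a block the first did not pass (adjusted p = 0.0566, DESeq2). Nor did the second with the label as a block (adjusted p = 0.0533, DESeq2). That block joins vehicle mice with different animals of the same label, so it is no pairing by mouse. Among 9 inhibitors only Tollip, which binds the receptors' kinases, was called, lower in tdT- than in BLZ945 tdT+ cells in all 4 mice (1296 to 1783 against 2049 to 2837, log2 fold change -0.68 ± 0.22 SE, adjusted p = 0.00604, DESeq2; adjusted p = 0.0433, edgeR). Its mean was 1762 in vehicle tdT+ and 1488 in tdT- cells, which was not called (adjusted p = 0.688, DESeq2). The most abundant inhibitor, Nfkbia, which holds NF-κB in the cytosol, had 332, 377 and 371 TPM in vehicle tdT+, BLZ945 tdT+ and tdT- cells.

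For comparison, 1 of 9 cytosolic sensors was called, in both comparisons of tdT- cells (6.38% and 6.76% of all genes tested). Sting1, which relays the sensing of cytosolic DNA, was higher in tdT- cells (6851 to 14800 normalised counts) than in BLZ945 tdT+ (4873 to 7042, log2 fold change 0.61 ± 0.22 SE, adjusted p = 0.0175) and vehicle tdT+ cells (4629 to 5613, adjusted p = 0.00108). With the mouse as a block the first adjusted p was 0.0921 (DESeq2). In edgeR, without a block, the adjusted p values were 0.126 and 0.0464. Its highest value stood in tdT- library M1, the one with the highest microglia marker sum.

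The genes whose levels went most closely with Tlr4 over the 12 libraries, by Pearson's r of log2(normalised count + 1) among 9306 genes, were F13a1 (r = 0.95), which encodes a subunit of coagulation factor XIII, Fcgr2b (r = 0.94), an inhibitory Fc receptor, and Vcam1 (r = 0.94), an adhesion molecule. The r values describe libraries that fall into 3 groups and share mice, and carry no test. Vcam1 had 14040 ± 3442 normalised counts in vehicle tdT+, 24990 ± 5540 in BLZ945 tdT+ and 7016 ± 1457 in tdT- cells. F13a1 had 57580 ± 6600, 74370 ± 9618 and 36880 ± 9239. Of the members, Tlr8 (r = 0.88) and Tlr5 (r = 0.77) were nearest to Tlr4, and Tlr2 (r = 0.03) and Tlr3 (r = -0.12) farthest, with Tlr9 left out for its low level.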

How the data were processed

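Bulk RNA-seq counts of 12 libraries were analysed. Per the labels and methods, the authors sorted the cells, amplified picogram amounts of RNA by PCR (SMART-Seq, no molecular identifiers), aligned reads with STAR 2.7.11a and counted them with featureCounts 2.0.6 over exons of a filtered GENCODE annotation of build GRCm39, uniquely mapped and without strand. The deposited values are raw counts per gene name. Total counts were 19969308 to 23395058 per library, and p-values and intervals cover the spread between mice and counting error only.

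One library's column carries a mouse label that disagrees with its library number, and it was assigned by that number, which the sample's labels give. A gene was dropped where 75% or more of its libraries were below 10 counts, leaving 13724. DESeq2 1.42.0 (R 4.3.3) was fitted to all 12 libraries with group as the only term, p-values were Benjamini-Hochberg adjusted over all genes, and apeglm 1.24.0 gave shrunken log2 fold changes. A gene was called changed when its adjusted p did not exceed 0.05, and a DEG when its shrunken log2 fold change also reached 1 in either direction. TPM was computed from the counts and the deposited exon lengths. edgeR 4.0.16 served as an alternative and for the test of the mouse label's letter. The functions were tested on simulated data. Replicates differed by more than sampling noise (lowest chi-square per degree of freedom 48.4 over 18 pairs).

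Members and lists were chosen with earlier results of these data known. All 10 members are named; of each pathway list, the genes called per comparison (at most 4 by adjusted p), or the most abundant where none was. Names that fell outside that rule (Tlr11, Cd14 and Ly96 within BLZ945 mice, Lbp, Irf8 and Sting1 with the block, and the markers) were chosen after their values were seen. Same-numbered BLZ945 libraries are from the same mouse, so the numbers pair them. Their deviations from group means correlated by -0.00463 to 0.0352 over all genes and 0.106 to 0.264 over those with mean normalised counts from 1000 upwards. Alternatives were the mouse as a block, the letter as a covariate, TMM scaling, no filter, unshrunken folds, fits of only the groups compared and leaving out each replicate. In comparisons with vehicle tdT+ cells the block was the label, which different animals share. Promoters came from RefSeq (GRCm38.p6), transcripts from GENCODE of GRCm38.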

Additional observations from a re-analysis of the deposited data

Results flagged for a closer look

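Each member's lowest and highest library was compared with the rest of its group by Dixon's gap test at its 95% level. None of the 30 sets of 4 libraries held a value past that limit, where chance would give about 1.5. No member's effect differed between the letters of the mouse label after adjustment.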

How the results depend on the processing

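Of 450 recomputed fold changes of single members, 434 kept their direction and side of the threshold, and none that was called changed direction. Those with unshrunken folds reuse the adjusted p of the main fit and could not change side. For tdT- against BLZ945 tdT+ cells the count of members called stayed at 3 with the mouse as a replicate block, which pairs the libraries of a mouse, and ran from 2 to 5 without single libraries. DEGs among them rose from 0 to 1 (Tlr5) with the block, with the letter as covariate, with TMM factors and with only the compared groups in the fit. They rose to 1 (Tlr8) with edgeR, whose log2 fold changes are not shrunken with apeglm. With unshrunken fold changes of DESeq2 they rose to 2 (Tlr5 and Tlr8). Without single libraries they ran from 0 to 1. Between tdT+ groups the count of members called rose from 0 to 1 (Tlr13) with only the compared groups, and from 0 to 2 without single libraries. Pathway genes called within BLZ945 mice fell from 6 to 1 with edgeR (7 with the block) and to between 3 and 6 without single libraries. Against vehicle tdT+ cells, those of tdT- cells fell from 7 to 1 with edgeR and to 4 with TMM factors, and ran from 2 to 8 without single libraries. Between tdT+ groups the 1 pathway gene became 0 with edgeR or TMM factors, 2 with only the compared groups, and 0 to 1 without single libraries. Sign changes arose only for uncalled members without single libraries. They were Tlr9 between tdT+ groups (-4.66e-05 to 0.0164) and, for tdT- against vehicle tdT+ cells, Tlr2 (-0.146 to 0.11) and Tlr6 (-0.226 to 0.0497). The causes were not tested beyond what each setting changes. Shares of all genes called were not computed for the fits without single libraries. Tlr9 rests on 1 to 165 reads per library.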
